A study of Mus musculus with 20 samples.

Results

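The genes of MHC class II antigen presentation were followed through the small intestine of mouse pups. These are the class II chain genes H2-Aa, H2-Ab1, H2-Eb1 and H2-Eb2, the peptide-loading genes H2-DMb1, H2-DMb2, H2-Oa and H2-Ob, the invariant chain gene Cd74 and the transactivator gene Ciita. The 10 genes were chosen by name, for their shared role, out of 55487 mouse gene IDs in the deposited table, and all 10 passed the filter on low counts. Polyadenylated RNA of whole small intestinal tissue was sequenced in bulk. Pups of control dams are called control pups here and pups of dams with periodontitis, an inflammation of the tissue around the teeth, are called periodontitis pups. Each kind of pup was sampled at 2 and at 7 weeks of age, which gives 4 groups of 5 libraries and 20 libraries in all. The study's title places the comparison in work on oral bacteria passed from mother to infant and on enteritis in offspring. The labels give no strain, sex, litter, segment of the intestine or method of inducing periodontitis. Periodontitis was a condition of the dams, so pups of 1 litter would not be independent, and p-values measure only the spread between these libraries.

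MHC class II molecules carry peptides from engulfed or internalised protein to the surface of a cell, where CD4+ T cells read them. An alpha and a beta chain form the molecule (H2-Aa with H2-Ab1 as I-A, and H2-Ea with H2-Eb1 as I-E), and the invariant chain Cd74 occupies the groove until the molecule reaches an endosome. There H2-DM, made of H2-DMa with H2-DMb1 or H2-DMb2, exchanges the invariant chain fragment for a peptide, and H2-DO, made of H2-Oa and H2-Ob, restrains H2-DM. B cells, dendritic cells and macrophages express the genes constitutively or on activation, H2-DO is known chiefly from B cells, and enterocytes can express class II under interferon-gamma. Ciita does not bind DNA itself but is recruited by RFX, CREB and NF-Y proteins to a conserved promoter module of X and Y boxes.

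The 8 H2 genes lie in 1 cluster on chromosome 17 (GRCm38, GENCODE M21, chr17:34092340-34341412). H2-Aa is on the minus strand and the other 7 are on the plus strand. Ciita lies at chr16:10480059-10528418 on the plus strand. RefSeq promoters on GRCm38.p6, from 250 bases before to 50 bases after each start site, were used for the 7 genes shown here. The following 66-base windows are shown because X and Y boxes make up the module through which Ciita acts. A Y box core was found in all 7 windows, and the X box letters were not found in those of H2-Aa and H2-Oa. Capitals mark the Y box core GATTGG and, where it was found, the X box letters AACNNATG. The sequences are written 5′ to 3′ on the strand of the gene.
H2-Aa: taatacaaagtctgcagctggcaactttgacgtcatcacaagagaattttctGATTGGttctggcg
H2-Eb1: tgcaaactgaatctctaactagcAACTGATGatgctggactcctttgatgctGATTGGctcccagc
H2-Eb2: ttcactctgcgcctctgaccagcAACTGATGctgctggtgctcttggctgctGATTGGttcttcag
H2-DMb1: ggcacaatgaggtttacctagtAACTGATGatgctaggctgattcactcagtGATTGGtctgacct
H2-DMb2: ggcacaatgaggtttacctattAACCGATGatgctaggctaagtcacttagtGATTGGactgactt
H2-Oa: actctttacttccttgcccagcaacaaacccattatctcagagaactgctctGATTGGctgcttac
H2-Ob: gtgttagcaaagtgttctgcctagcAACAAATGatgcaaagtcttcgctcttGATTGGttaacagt

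These windows lie at chr17:34287859-34287924 for H2-Aa, chr17:34305755-34305820 for H2-Eb1 and chr17:34325522-34325587 for H2-Eb2. They lie at chr17:34153077-34153142 for H2-DMb1, chr17:34145106-34145171 for H2-DMb2, chr17:34092283-34092348 for H2-Oa and chr17:34238795-34238860 for H2-Ob. The core GATTGG was present in 7 of 7 promoters and began 44 to 101 bases before the RefSeq start site. On either strand the same letters occur in 16.1% of 32851 mouse promoters of 300 bases. AACNNATG was found in 5 of 7, against 8.86% of all promoters, and stood 19 to 22 bases before the Y core in H2-Ob, H2-Eb1, H2-Eb2, H2-DMb1 and H2-DMb2. This order within 40 bases occurs in 37 promoters in all, which is 0.113%. The X letters were chosen after these sequences were seen, and the 2 motifs do not overlap. H2-DMb1 and H2-DMb2, which arose as copies of each other, have nearly the same window. A match of letters is a description and not a binding site.

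Depth was between 14.9 and 42.6 mega counts in the 20 libraries. Control library 5 at 2 weeks had the lowest total and is apart from its group in several class II genes and beyond them. It had 20080 genes with counts, against 23350 to 23574 in the other controls of that age. Rfx5 was at 28.3 CPM there against 7.75 to 9.43, and Irf1 at 38.2 against 85.4 to 118. The strain, MHC haplotype and label of this library could not be checked from the sources used here. The differences that it moves most at 2 weeks are therefore also given without it. Periodontitis libraries 3 to 5 at 2 weeks had a lower mean of 8 weaned enterocyte genes (5.94 to 6.69 log2 CPM) than the other 7 libraries of that age (at least 7.9996). The mean of 7 distal intestine genes was 6.50 to 7.11 log2 CPM in control and 5.18 to 6.78 in periodontitis pups at 2 weeks. At 7 weeks it was lower, at 3.07 to 4.38 in control and 2.29 to 4.44 in periodontitis pups, and lowest in periodontitis library 5. Whether this goes with age or with the segment sampled was not tested, so the comparisons between ages may also compare segments. The mean of 10 epithelial genes was 7.98 to 10.1 log2 CPM over the 20 libraries, so the labelled tissue has its epithelial transcripts throughout. The lowest, 7.98, was that of control library 5 at 2 weeks, against 9.13 to 9.40 in the other controls of that age. CPM here are counts per mega counts of a library after scaling by TMM, and log2 fold changes are periodontitis against control or 7 against 2 weeks. The TMM factors were 1.26 to 1.45 at 2 weeks, save 0.836 in control library 5, and 0.715 to 0.986 at 7 weeks. The size and direction of changes with age therefore depend on this scaling.

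The 10 genes differed widely in level, with Cd74, H2-Aa, H2-Ab1 and H2-Eb1 the highest in each of the 4 groups. Divided by transcript length, H2-Eb2 had the lowest median in each of them. On that scale Cd74 had the highest median in control pups at 2 weeks, 144 CPM per kb. It was followed by H2-Aa at 74.7, H2-Ab1 at 71.9 and H2-Eb1 at 42.6 CPM per kb. The ranges of H2-Aa and H2-Ab1 overlapped, and library 5 also brought Cd74 and H2-Aa into overlap. H2-Eb1 lay below H2-Ab1 in all 5 libraries. A gap separated these from H2-DMb1, the more abundant of the DM beta genes, at 5.70 CPM per kb. H2-DMb2 stood at 1.58, H2-Oa at 1.32, H2-Ob at 1.03 and Ciita at 1.02 CPM per kb, with overlapping ranges. H2-Eb2, an additional beta chain gene of the E region, was lowest at 0.268 CPM per kb and did not overlap Ciita. At 7 weeks the median of H2-Ab1 per kb was above that of H2-Aa, at 104 against 53.4 in control pups and 125 against 40.5 in periodontitis pups. In the latter group H2-Ab1 was also above Cd74, whose median was 89.98 CPM per kb, with overlapping ranges.

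**Figure D1:**
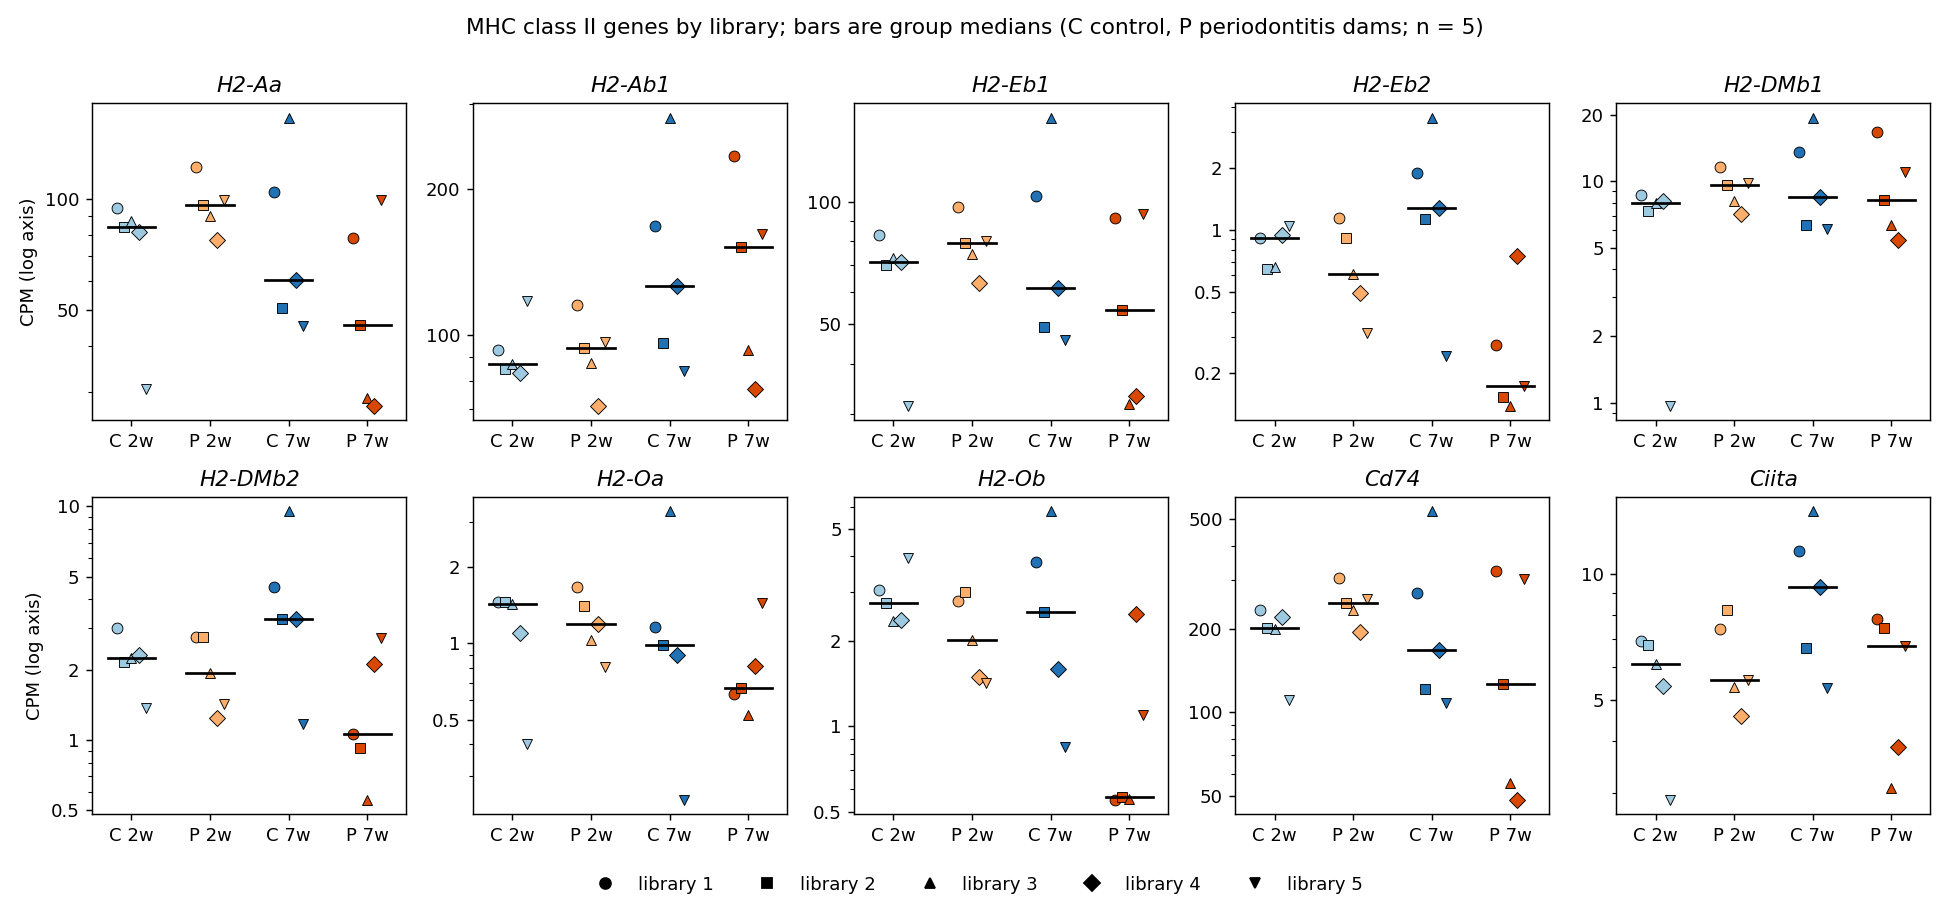
CPM of the 10 class II genes in each library (log axes, each with its own range), by group; colours mark the 4 groups, shapes the library number, and bars the group medians (n = 5). Control library 3 at 7 weeks is highest of its group in every panel, and H2-Eb2 and H2-Ob are low in periodontitis pups at 7 weeks except in library 4.

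At 7 weeks all 10 genes had a lower fitted mean in periodontitis than in control pups, and H2-Eb2, H2-DMb2 and H2-Ob had the largest differences. Without control library 3, the highest of its group in every gene, the values of H2-Ab1, H2-DMb1, H2-Oa and Cd74 were no longer negative. No gene of the 10 passed the test. edgeR's quasi-likelihood test called 0 of 10 at an adjusted p of 0.05, against 0.0115% of all 17464 genes tested. At an unadjusted p under 0.05 there were 4 of the 10 (H2-Eb2, H2-DMb2, H2-Ob and Ciita), against 3.33% of all genes. DESeq2 called 1 of 10, H2-Eb2, against 0.116% of the genes it tested. The median log2 fold change of the 10 genes was -0.65, against 0.02 for all genes, of which 45.1% were negative. For no gene of the 10 were the 2 groups free of overlap. In bulk tissue, fewer cells that express a gene and less of its RNA per cell cannot be told apart.

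H2-Eb2 had 1.89, 1.13, 3.54, 1.28 and 0.241 CPM in control libraries 1 to 5 at 7 weeks. In periodontitis libraries 1 to 5 it had 0.275, 0.153, 0.139, 0.748 and 0.174 CPM, which rest on 7, 3, 4, 12 and 6 counts. Control libraries 1 to 4 were above every periodontitis library, and control library 5 fell among the periodontitis values. The log2 fold change was -2.54 ± 0.57 (SE), or 5.81-fold lower, with an edgeR adjusted p of 0.257. DESeq2 gave -2.52 with an adjusted p of 0.00774, so the call depends on the tool. Over leaving out each library the edgeR value ran from -3.12 (without periodontitis library 4) to -2.03 (without control library 3), with adjusted p from 0.0583 to 0.927.

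H2-Ob, the beta chain of H2-DO, had 3.81, 2.55, 5.77, 1.60 and 0.845 CPM in control pups at 7 weeks, in order of library. In periodontitis pups it had 0.550, 0.563, 0.554, 2.49 and 1.10 CPM. Library 4 was the high one among the latter and library 5 the low one among controls, as for H2-Eb2. The log2 fold change of H2-Ob was -1.51 ± 0.47 (edgeR adjusted p = 0.869). H2-DMb2 had 4.51, 3.29, 9.51, 3.31 and 1.17 CPM in controls and 1.06, 0.921, 0.554, 2.12 and 2.72 CPM in periodontitis pups. Its log2 fold change was -1.56 ± 0.46 (edgeR adjusted p = 0.791). Here periodontitis libraries 4 and 5 were the high ones, both still below 4 of the 5 controls. H2-Oa, the alpha chain of H2-DO, differed less. It had 1.16, 0.981, 3.31, 0.895 and 0.241 CPM in controls and 0.629, 0.665, 0.520, 0.810 and 1.45 CPM in periodontitis pups, a log2 fold change of -0.69 ± 0.48. Without control library 3 that difference was 0.00.

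The abundant chains did not follow this order of libraries. H2-Aa had 105, 50.9, 166, 60.3 and 45.4 CPM in control libraries 1 to 5 at 7 weeks and 78.6, 45.7, 28.9, 27.5 and 99.6 CPM in periodontitis libraries 1 to 5. Periodontitis library 4, high in H2-Eb2 and H2-Ob, was the lowest of all 10 in H2-Aa, and library 5 was among the highest. The log2 fold change of H2-Aa was -0.61 ± 0.39 (edgeR adjusted p = 1), and it was -0.22 without control library 3 and -0.92 without periodontitis library 5. H2-Eb1, the beta chain of I-E, moved with H2-Aa, at 103, 49.1, 161, 61.5 and 45.6 CPM in controls and 91.6, 54.3, 31.7, 33.3 and 93.2 CPM in periodontitis pups, a log2 fold change of -0.47 ± 0.36, or -0.093 without control library 3. Cd74 had 270, 121, 532, 168 and 108 CPM in controls and 323, 127, 55.6, 48.4 and 304 CPM in periodontitis pups. The periodontitis libraries thus fell into a high pair (1 and 5) and a low pair (3 and 4), with library 2 near the lower controls. Cd74 lies on chromosome 18, apart from the class II cluster. The log2 fold change of Cd74 was -0.48 ± 0.48, and it was 0.04 without control library 3 and -0.84 without periodontitis library 1.

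H2-Ab1 showed the smallest difference of the 10 at 7 weeks. It had 168, 96.0, 282, 126 and 84.2 CPM in controls and 234, 152, 92.8, 77.1 and 162 CPM in periodontitis pups, with a log2 fold change of -0.07 ± 0.30. Without control library 3 it was 0.28. H2-DMb1 had 13.6, 6.33, 19.4, 8.49 and 6.12 CPM in controls and 16.8, 8.24, 6.34, 5.42 and 11.0 CPM in periodontitis pups. Its log2 fold change was -0.17 ± 0.42, and 0.15 without control library 3. The groups overlapped almost wholly in both genes.

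Ciita, the regulator of the others, had 11.4, 6.67, 14.1, 9.30 and 5.35 CPM in control libraries 1 to 5 at 7 weeks. It had 7.82, 7.42, 3.08, 3.86 and 6.74 CPM in the periodontitis libraries. Periodontitis libraries 3 and 4 were below every control, as they were for H2-Aa and Cd74. The log2 fold change was -0.69 ± 0.30 (edgeR adjusted p = 1), and it stayed between -0.84 and -0.50 when single libraries were left out.

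At 7 weeks B cell transcripts went with H2-Eb2 and H2-Ob across the libraries. H2-DMb2 went with them less closely, as its highest periodontitis value was in library 5 (2.72 CPM) and not in library 4 (2.12 CPM). At 2 weeks control library 5 had the lowest B cell mean of its group (0.76 log2 CPM). It had the highest H2-Eb2 and H2-Ob there (1.05 and 3.94 CPM). The mean of 15 B cell genes was 1.05, 0.78, 2.36, 0.80 and -1.99 log2 CPM in control libraries 1 to 5 at 7 weeks. In the periodontitis libraries it was -1.99, -2.24, -2.38, 0.54 and -1.36 log2 CPM. The low control library and the high periodontitis library are the ones that H2-Eb2 and H2-Ob single out. Ms4a1, which encodes the B cell surface marker CD20, had 4.18, 2.65, 9.02, 1.79 and 0.161 CPM in control libraries 1 to 5. In periodontitis pups it had 0.0786, 0, 0, 2.87 and 0.0289 CPM. This marker was therefore at or near 0 in 5 of the 10 libraries, 4 of periodontitis and 1 of control pups. Cd79a of the same list was not absent there. It had 2.12, 0.409, 0.277, 2.87 and 2.17 CPM in periodontitis libraries 1 to 5. In control libraries 1 to 5 it had 6.60, 4.32, 18.6, 5.84 and 0.885 CPM.

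All 15 B cell genes had a negative log2 fold change at 7 weeks, with a median of -2.47, and 13 of 15 had an unadjusted p under 0.05, against 3.33% of all genes. edgeR called 0 of the 15, and DESeq2 called 3, all lower, against 0.116%. The genes with the smallest p were Fcmr, the IgM Fc receptor (-4.04 ± 0.88, edgeR adjusted p = 0.223), Pax5, the B lineage transcription factor (-4.12 ± 0.97, 0.311), Cd22 (-1.81 ± 0.47, 0.419) and Cr2 (-2.87 ± 0.81, 0.734). With the mean of the B cell list as a covariate, the 7-week difference was -0.47 for H2-Eb2, -0.02 for H2-Ob and 0.04 for H2-DMb2. Under that covariate it turned positive for H2-Aa (0.10), H2-Ab1 (0.43), H2-Eb1 (0.20), H2-DMb1 (0.37), H2-Oa (1.13) and Cd74 (0.39), and it was -0.18 for Ciita. The B cell mean comes from the same libraries and averaged 0.60 log2 CPM in control and -1.49 in periodontitis pups. Such a covariate takes up part of any group difference, so this fit cannot decide the part of B cell number, which was not tested.

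**Figure D2:**
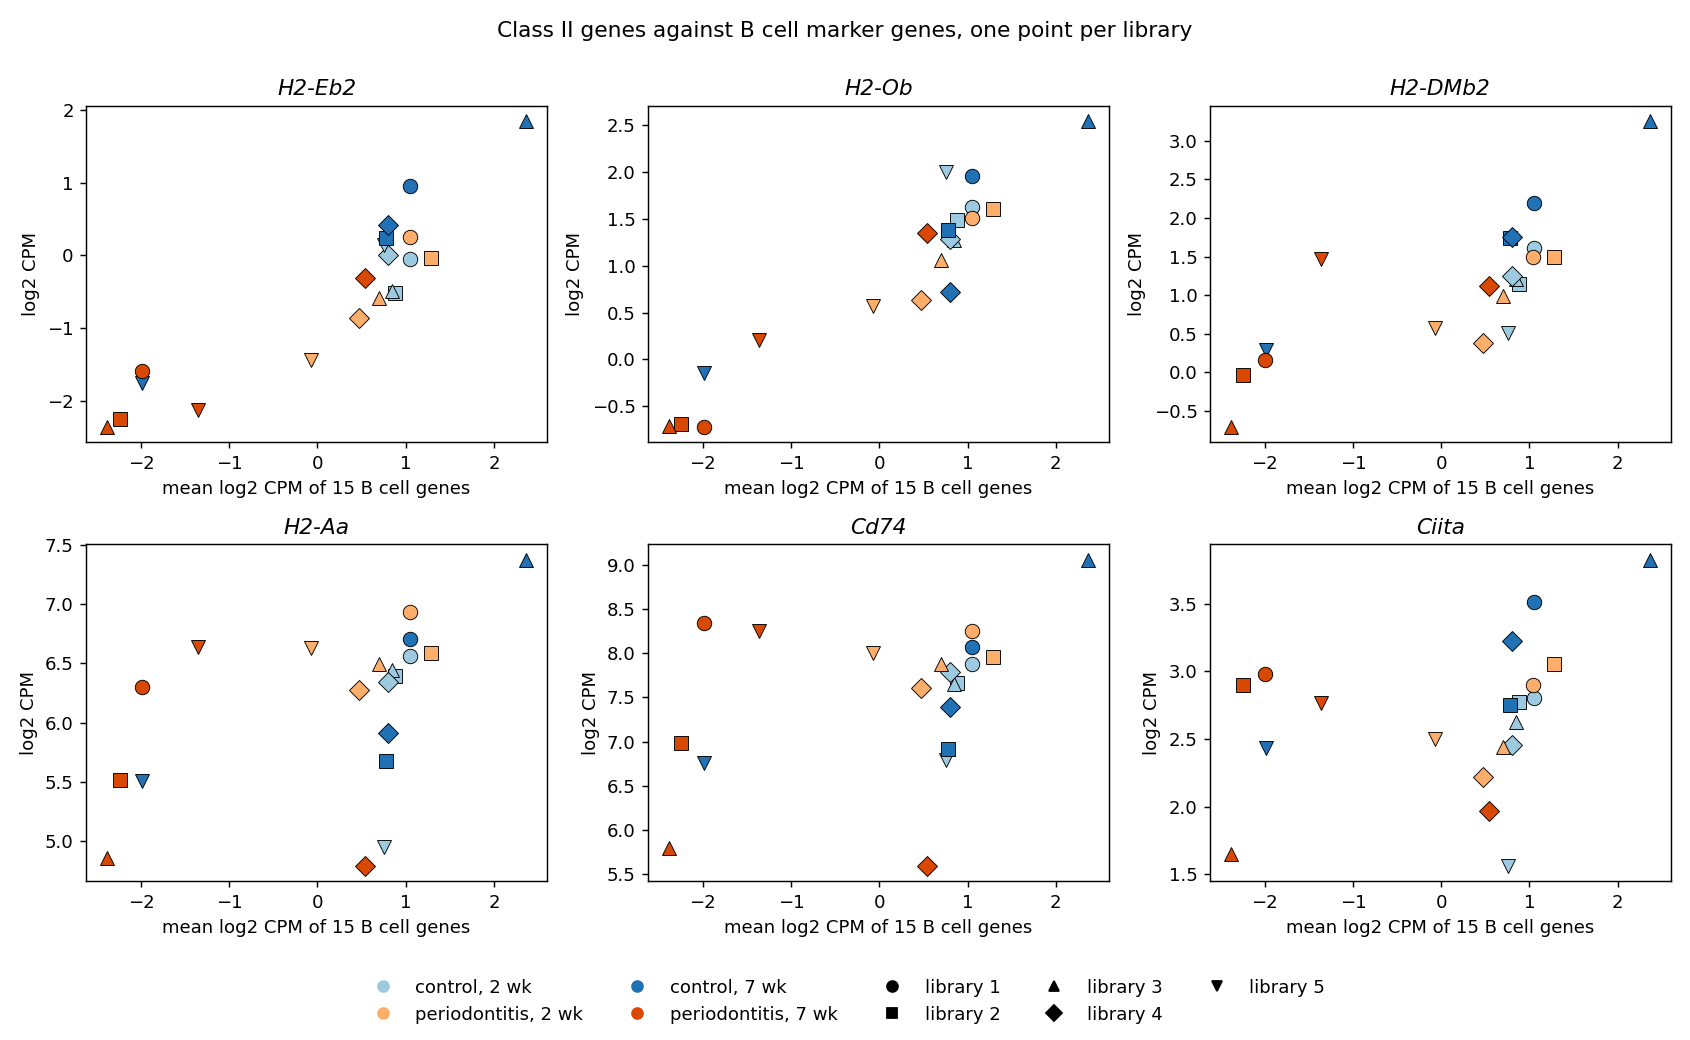
log2 CPM of 6 class II genes (vertical) against the mean log2 CPM of 15 B cell genes (horizontal), 1 point per library, coloured by group with the library number as shape. At 7 weeks H2-Eb2 and H2-Ob follow the B cell mean, while H2-Aa and Cd74 are lowest in periodontitis library 4 at 7 weeks, whose B cell mean is 0.54.

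Markers of the other class II cell types differed less at 7 weeks. The mean of the dendritic cell list had a range of -0.22 to 1.22 log2 CPM in control pups and of -0.51 to 0.68 in periodontitis pups, and 9 of 11 tested genes were negative, with a median of -0.48. The macrophage list had a range of 2.75 to 3.75 log2 CPM in control pups and of 2.19 to 3.57 in periodontitis pups, with 10 of 13 negative and a median of -0.44. edgeR called 0 genes of either list, against 0.0115% of all genes, and DESeq2 called 0, against 0.116%. At an unadjusted p under 0.05 there were 2 of 11 dendritic and 1 of 13 macrophage genes, against 3.33% of all genes. Periodontitis library 5, high in H2-Aa and Cd74, was also the highest of its group in both lists (0.68 and 3.57 log2 CPM). The part of these cells in the class II values was not tested.

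At 2 weeks the class II genes lay close together between control and periodontitis pups. edgeR called 0 of 10, against 0.0286% of all genes, 0 of 10 had an unadjusted p under 0.05 against 14.4% of all genes, and DESeq2 called 0 against 3.36%. Log2 fold changes ran from -0.42 (H2-Ob) to 0.46 (H2-DMb1), 6 positive and 4 negative, with a median of 0.08 against 0.02 for all genes. H2-Aa had 94.7, 84.2, 87.3, 81.2 and 30.7 CPM in control libraries 1 to 5 and 122, 96.2, 90.3, 77.3 and 99.2 CPM in periodontitis libraries 1 to 5. Its log2 fold change was 0.36 ± 0.38, and 0.16 without control library 5. Cd74 had 235, 203, 201, 222 and 111 CPM in controls and 305, 248, 235, 195 and 257 CPM in periodontitis pups, a log2 fold change of 0.35 ± 0.47, and 0.21 without control library 5. Apart from that library, the control values of both genes lay within a narrow band that the periodontitis values overlapped.

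Control library 5 at 2 weeks did not move alike in all genes. It was the lowest of its group in H2-Aa (30.7 CPM against 81.2 to 94.7), H2-Eb1 (31.5 against 69.97 to 83.1), H2-DMb1 (0.966 against 7.31 to 8.70) and Cd74 (111 against 201 to 235). In H2-Ab1 it was the highest, at 118 CPM against 83.5 to 93.1. H2-DMb2, whose product also pairs with H2-DMa, stood at 1.37 CPM there against 2.16 to 3.00 in the other 4. H2-Oa was at 0.402 CPM against 1.10 to 1.45, and Ciita at 2.90 CPM against 5.41 to 6.93. H2-Ob (3.94 CPM) and H2-Eb2 (1.05 CPM) were the highest of the group. In this library the values of H2-DMb1, H2-DMb2, H2-Oa and H2-Eb2 rest on 12, 17, 5 and 13 counts. The macrophage mean of this library was 2.60 log2 CPM against 3.60 to 3.88 in the other 4. Its dendritic mean was -0.26 against 0.23 to 0.50, and its B cell mean 0.76 against 0.80 to 1.05.

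The remaining genes at 2 weeks also overlapped between the groups. H2-Eb1 had 83.1, 69.97, 72.7, 71.1 and 31.5 CPM in controls and 97.1, 79.5, 74.3, 63.3 and 80.1 CPM in periodontitis pups, a log2 fold change of 0.26 ± 0.35, or 0.086 without control library 5. H2-Ab1 had 93.1, 84.8, 87.1, 83.5 and 118 CPM in controls and 115, 93.8, 87.4, 71.2 and 96.5 CPM in periodontitis pups, a log2 fold change of -0.01 ± 0.30, or 0.090 without it. H2-DMb1 had 11.6, 9.65, 8.14, 7.11 and 9.84 CPM in periodontitis pups. Its log2 fold change of 0.46 ± 0.41 became 0.20 without control library 5. Ciita had 7.40, 8.23, 5.38, 4.59 and 5.59 CPM in periodontitis pups, at 0.13 ± 0.30 on the log2 scale, which was -0.02 without that library.

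Within the periodontitis pups at 2 weeks, H2-Eb2, H2-Ob and H2-DMb2 had their low values in libraries 3 to 5. H2-Eb2 had 1.14, 0.916, 0.609, 0.495 and 0.313 CPM and H2-Ob 2.79, 2.98, 2.03, 1.5 and 1.43 CPM. H2-DMb2 had 2.77, 2.75, 1.93, 1.24 and 1.43 CPM. The B cell mean of the same libraries was 1.04, 1.28, 0.70, 0.47 and -0.07 log2 CPM. These are the libraries that are also low in weaned enterocyte genes, and the part of either was not tested. The log2 fold changes were -0.26 ± 0.51 for H2-Eb2, -0.42 ± 0.44 for H2-Ob and -0.15 ± 0.44 for H2-DMb2, and 0.03 ± 0.46 for H2-Oa. Without control library 5 those of H2-DMb2 and H2-Oa were -0.27 and -0.15.

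The difference between dams was compared between the ages by the interaction term. All 10 values were negative, with a median of -0.83 against 0.01 for all genes. edgeR called 0 of 10, against 0.0229% of all genes, 2 had an unadjusted p under 0.05 against 8.8%, and DESeq2 called 0 against 0.331%. The 2 were H2-Eb2 at -2.28 ± 0.76 (edgeR adjusted p = 0.474) and H2-DMb2 at -1.41 ± 0.64 (edgeR adjusted p = 0.558). H2-Ab1 was nearest to 0, at -0.07 ± 0.42. A larger difference at 7 than at 2 weeks was thus not shown for any gene of the 10.

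**Figure D3:**
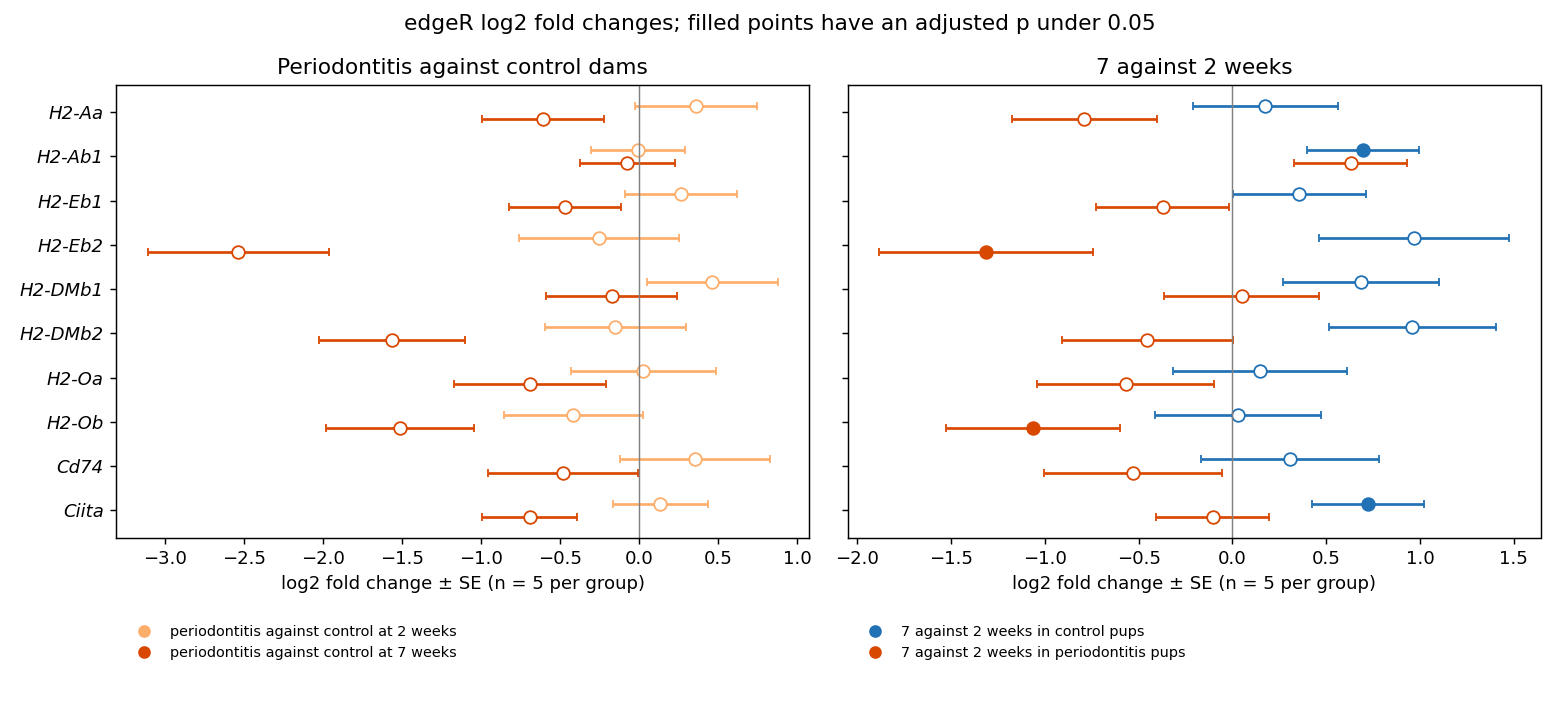
Log2 fold changes ± SE (edgeR, n = 5 per group) of the 10 class II genes, between dams at each age on the left and between ages for each kind of pup on the right; filled points have an adjusted p under 0.05. All 10 values at 7 weeks are below 0 on the left, with H2-Eb2 at -2.54, and 4 points are filled on the right.

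From 2 to 7 weeks the control pups had higher fitted means in all 10 genes, and H2-Ab1 and Ciita rose. edgeR called 2 of 10 higher, against 27.1% of all genes higher and 34.4% lower, and 0 lower. DESeq2 called 1 of 10 higher, Ciita, against 23% of the genes it tested. The share of the 10 called is therefore not above that of genes at large. The median log2 fold change was 0.52, against -0.13 for all genes. H2-Ab1 went from 93.3 ± 14.1 to 151 ± 79.9 CPM (SD, n = 5 each), a log2 fold change of 0.70 ± 0.30 (edgeR adjusted p = 0.0495). Ciita went from a range of 2.90 to 6.93 to one of 5.35 to 14.1 CPM, a log2 fold change of 0.72 ± 0.30 (edgeR adjusted p = 0.0428).

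Both calls lie at the threshold. H2-Ab1 was no longer called without 7 of the 10 libraries taken singly (control libraries 1 to 4 at 2 weeks, and 1, 3 and 4 at 7 weeks), nor by DESeq2 (adjusted p = 0.0503). Ciita was no longer called without 6 of them (libraries 3 to 5 at 2 weeks, and 1, 3 and 4 at 7 weeks), and DESeq2 called it (adjusted p = 0.031). Control library 3 at 7 weeks moved them most, to 0.35 for H2-Ab1 and 0.53 for Ciita. H2-Eb2 (0.97 ± 0.51) and H2-DMb2 (0.96 ± 0.45) had larger values and H2-DMb1 (0.68 ± 0.42) one just below, and they did not pass. Without control library 5 at 7 weeks, 4 of the 10 were called higher. In that fit 10198 of all genes were called in either direction, against 10739 with every library. H2-Eb1 was at 0.36 ± 0.36, Cd74 at 0.30 ± 0.47, H2-Aa at 0.18 ± 0.38, H2-Oa at 0.15 ± 0.46 and H2-Ob at 0.03 ± 0.44. Without control library 3 at 7 weeks these 5 were at -0.019, -0.22, -0.21, -0.55 and -0.38, in the same order.

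In periodontitis pups H2-Eb2 and H2-Ob were called lower at 7 than at 2 weeks, both at the threshold, and 8 of the 10 fitted values were negative. edgeR called 2 of 10 lower, against 35.7% of all genes lower and 30.4% higher, and 0 higher. The share of the 10 called is therefore not above that of genes at large. Neither was called with DESeq2's size factors in edgeR. The median was -0.49, against -0.11 for all genes. H2-Eb2 changed by -1.31 ± 0.57 on the log2 scale, or 2.49-fold lower (edgeR adjusted p = 0.048), and H2-Ob by -1.07 ± 0.46, or 2.09-fold lower (edgeR adjusted p = 0.0493). DESeq2 called the same pair lower, against 28.1% of the genes it tested. Each call was lost without 7 of the 10 libraries taken singly, libraries 1 to 3 at 2 weeks and 1, 2, 3 and 5 at 7 weeks. Without library 4 at 7 weeks the falls were larger, -1.89 (adjusted p = 0.00877) and -1.61 (adjusted p = 0.00419).

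The B cell list fell over the same interval in periodontitis pups, with 10 of 15 genes called lower and 1 higher, against 35.7% and 30.4% of all genes, and a median of -1.82. In control pups 1 was called higher and 1 lower, against 27.1% and 34.4%, with a median of 0.32. With the B cell mean as a covariate, the change with age in periodontitis pups was 0.49 for H2-Eb2 and 0.28 for H2-Ob. Neither was called. In that fit H2-Ab1 and H2-DMb2 were called higher in periodontitis pups, where 8655 genes were called in all. H2-Eb2, H2-DMb2 and Ciita were called higher in control pups, where 10615 genes were called. The B cell mean itself fell with age in periodontitis pups, so this fit cannot decide the part of B cells, which was not tested. Against the same shares of all genes, the macrophage list had 8 of 13 called lower and 1 higher in periodontitis pups, against 3 and 3 in control pups, and the dendritic list had 5 lower and 2 higher of 11, against 2 and 2. The part of macrophages and dendritic cells was not tested. H2-Aa changed by -0.79 ± 0.39, Cd74 by -0.53 ± 0.48, H2-Oa by -0.57 ± 0.47, H2-DMb2 by -0.45 ± 0.46 and H2-Eb1 by -0.37 ± 0.36. Ciita (-0.11 ± 0.30) and H2-DMb1 (0.05 ± 0.41) were near 0, and H2-Ab1 was at 0.63 ± 0.30 (edgeR adjusted p = 0.0698).

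The beta and alpha chain transcripts of I-A did not keep a fixed proportion. Ratios to H2-Aa were chosen after the values had been seen and are a description with no test. In all 36 ratio comparisons were made, and not all are given. How many ratios of genes at large separate between ages was not examined. The per-kb ratio of H2-Ab1 to H2-Aa was 0.915, 0.937, 0.929, 0.956 and 3.57 in control libraries 1 to 5 at 2 weeks. It was 0.875, 0.907, 0.902, 0.857 and 0.905 in periodontitis pups of that age. At 7 weeks it was 1.49, 1.76, 1.58, 1.95 and 1.72 in control and 2.77, 3.09, 2.99, 2.61 and 1.51 in periodontitis pups. On this scale 9 of 10 libraries at 2 weeks had a ratio slightly below 1, and at 7 weeks all 10 were above it. The level of the ratio depends on the 1 transcript length used for each gene. Which chain had more RNA therefore cannot be read from a ratio near 1.

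In periodontitis pups the mean log2 ratio of H2-Ab1 to H2-Aa was 1.5 higher at 7 than at 2 weeks, with no overlap between the ages. In control pups the difference with age was 0.47 with overlap, and 0.86 without control library 5 at 2 weeks. Between dams at 7 weeks it was 0.57, and periodontitis library 5 lay among the controls. At 2 weeks it was -0.46, of which -0.07 remained without control library 5.

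**Figure D4:**
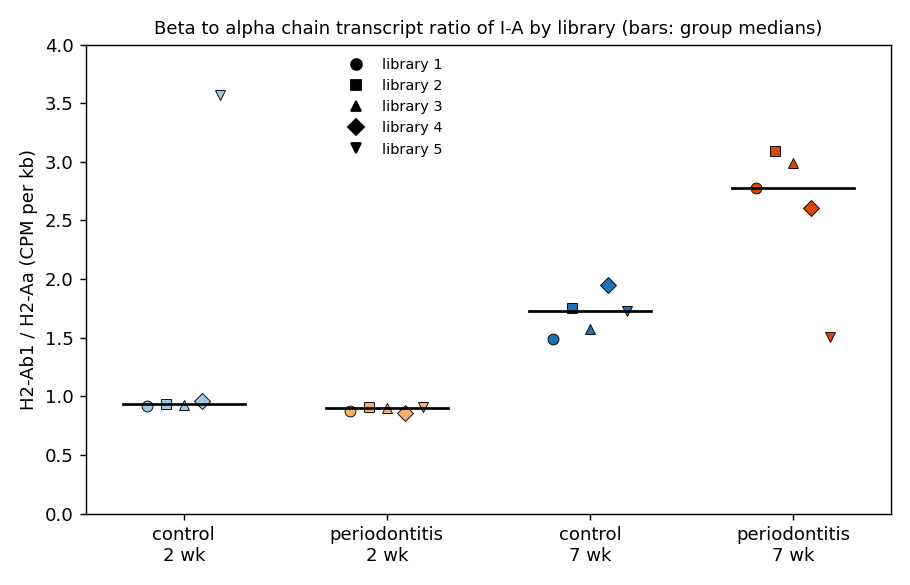
Ratio of H2-Ab1 to H2-Aa transcripts (CPM per kb of each, vertical, from 0) in each library by group, with group medians as bars and the library number as shape. The ratio is near 1 at 2 weeks except in control library 5 (3.57), 1.49 to 1.95 in control pups at 7 weeks, and 1.51 to 3.09 in periodontitis pups at 7 weeks.

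Other genes of the group differed in how they followed H2-Aa. The per-kb ratio of Cd74 to H2-Aa had a narrow range of 2.00 to 2.08 in periodontitis pups at 2 weeks and a wide one of 1.40 to 3.29 in those at 7 weeks. In control pups it ran from 1.84 to 2.89 at 2 weeks and from 1.91 to 2.56 at 7 weeks, so the 4 groups overlapped. The ratio of H2-Eb1 to H2-Aa was 0.537 to 0.558 in periodontitis pups at 2 weeks and 0.632 to 0.818 at 7 weeks, a mean log2 difference of 0.45 with no overlap. In control pups at 2 weeks it was 0.562 to 0.694, just above the periodontitis range. That log2 difference between dams was -0.12, and -0.069 without control library 5. The ratio of H2-DMb1 to H2-Aa was 0.0938 to 0.113 in control pups at 7 weeks, above all 5 libraries at 2 weeks. The log2 difference with age was 0.77, and 0.48 without control library 5 at 2 weeks, whose ratio was 0.0253 against 0.0698 to 0.0808 in the other 4. In periodontitis pups the H2-DMb1 difference with age was 0.91, from 0.0724 to 0.0806 at 2 weeks to 0.0889 to 0.177 at 7 weeks. These comparisons share groups and the H2-Aa values, so they are not independent of each other. The ratios of H2-Eb2, H2-DMb2, H2-Oa, H2-Ob and Ciita to H2-Aa overlapped in every comparison between dams and between ages.

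Of the 50-base stretches of H2-DMb1 transcripts 22.7% also occur in another gene, all in H2-DMb2. For H2-DMb2 the share is 25.9%, or 451 stretches found in 297 other genes, of which 369 stretches occur in H2-DMb1. Reads in the stretches common to H2-DMb1 and H2-DMb2 could be assigned to either. H2-Oa shares 15.5% of its stretches with BC051537, an antisense gene over its exons. Ciita shares 1.46% with Dexi on the opposite strand. The sources used here do not state whether counting used strand, so reads of H2-Oa and BC051537, or of Ciita and Dexi, may not have been told apart. H2-Ab1, H2-Eb1, H2-Eb2, H2-Ob and Cd74 share 0% with other genes and H2-Aa shares 0.514%. H2-Ea, the alpha chain gene of I-E, which several common laboratory strains do not transcribe, had 2 counts in control library 3 at 2 weeks and 0 in the other 19 libraries.

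The wider class II pathway was followed in 28 further genes, 27 of them tested, for RFX and NF-Y factors, endosomal proteases, trafficking and co-stimulation. H2-DMa, the alpha chain of H2-DM, had log2 fold changes of 0.36 ± 0.36 at 2 weeks and -0.09 ± 0.36 at 7 weeks between dams, and 0.61 ± 0.36 and 0.16 ± 0.36 with age in control and periodontitis pups, none called. Between dams edgeR called 0 of 27 at either age at an adjusted p under 0.05. At an unadjusted p under 0.05 there were 7 at 2 weeks, against 14.4% of all genes, and 3 at 7 weeks, against 3.33%. DESeq2 called 4 higher at 2 weeks, against 3.36% in either direction, and 0 at 7 weeks. The smallest p at 2 weeks belonged to endosomal proteases. Ctsl, which degrades the invariant chain in thymic epithelium, was at 1.71 ± 0.32 (edgeR adjusted p = 0.0541), Lgmn at 1.28 ± 0.28 (0.0545), Ctsb at 0.66 ± 0.17 (0.087) and Ctss, the invariant chain protease of B and dendritic cells, at 0.54 ± 0.16 (0.118).

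Beside these values, 8 of 10 suckling enterocyte genes, which include lysosomal ones, had a positive difference at 2 weeks with a median of 1.00, and their mean was 5.29 to 6.44 log2 CPM in control pups and 6.44 to 7.27 in periodontitis pups. The part of enterocyte maturity was not tested. At 7 weeks the smallest p of the pathway belonged to Cd40, a co-stimulatory receptor (-1.34 ± 0.36, edgeR adjusted p = 0.583), Cd37 (-0.97 ± 0.38), Marchf1, a ubiquitin ligase that removes class II from the surface (-0.82 ± 0.32), and Cd4 (-0.71 ± 0.38). The RFX subunit gene Rfx5 was at -0.26 ± 0.29 at 2 weeks and -0.31 ± 0.29 at 7 weeks. Ifi30, a lysosomal thiol reductase, was at -0.18 ± 0.17 and 0.00 ± 0.17.

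With age the pathway genes moved in both directions. In control pups 6 of 27 were called higher and 2 lower, against 27.1% and 34.4% of all genes. The share called higher was near that of genes at large, and the share called lower was below it. Among the genes called were Lgmn (-3.04 ± 0.30, edgeR adjusted p = 1.97e-07), Rfxank, another RFX subunit gene (1.52 ± 0.21, 6.74e-06), Marchf8 (1.00 ± 0.19, 0.000172) and Cd82 (1.33 ± 0.26, 0.000204). In periodontitis pups 6 were called higher and 12 lower, against 30.4% and 35.7% of all genes. Lgmn (-4.08 ± 0.32), Ctsl (-3.52 ± 0.35), Cd40 (-1.86 ± 0.36), Ctss (-0.53 ± 0.16) and Rfx5 (-0.69 ± 0.29) fell there, and Rfxank rose (1.37 ± 0.21). The medians were 0.11 and -0.10, against -0.13 and -0.11 for all genes.

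Genes of the interferon-gamma axis, the inducer of Ciita outside professional antigen-presenting cells, were mostly called higher with age in both kinds of pup. Of 19 tested, 14 were called higher and 1 lower in control pups, against 27.1% and 34.4% of all genes. In periodontitis pups 14 were called higher and 2 lower, against 30.4% and 35.7%. The medians were 0.94 and 1.13, against -0.13 and -0.11 for all genes. Psmb9 and Tap1, which serve class I presentation, rose by 2.29 ± 0.19 and 2.01 ± 0.26 in control and by 2.05 ± 0.19 and 1.71 ± 0.26 in periodontitis pups on the log2 scale. The transcription factor gene Irf1 rose in both (1.65 ± 0.23 and 1.3 ± 0.23). Nlrc5, the class I counterpart of Ciita, was at 0.74 ± 0.38 in control pups (edgeR adjusted p = 0.0927) and rose by 1.02 ± 0.37 in periodontitis pups (edgeR adjusted p = 0.0214). The difference between these did not pass (0.28 ± 0.53, edgeR adjusted p = 0.889).

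Over the same interval H2-Aa, H2-Eb1 and Cd74 were not called in either kind of pup. Of 12 T cell genes 10 rose in control pups (27.1% of all genes did) and 9 in periodontitis pups (30.4%), and the part of T cells or epithelium in the axis was not tested. Between dams, edgeR called 0 of the 19 at either age. At an unadjusted p under 0.05 there were 4 at 2 weeks, against 14.4% of all genes, and 1 at 7 weeks, against 3.33%. DESeq2 called 2 lower at 2 weeks, against 3.36% in either direction, and 0 at 7 weeks. Irf1 was at 0.37 ± 0.23 and 0.01 ± 0.23, and Nlrc5 at -0.17 ± 0.37 and 0.11 ± 0.37. Ifng itself had 1, 1, 4 and 5 counts in all in control and periodontitis pups at 2 weeks and then at 7 weeks, too few to test.

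Once each group's mean was taken away, the 10 genes varied together over the 20 libraries to unequal extents. The correlation of a gene with the mean of the other 9 was highest for H2-Eb1 (r = 0.89), H2-Aa and H2-Oa (0.87 each), H2-DMb2 (0.86) and Ciita (0.85). It was lower for Cd74 (0.79), H2-DMb1 (0.69) and H2-Ab1 (0.68) and lowest for H2-Eb2 (0.55) and H2-Ob (0.48). The genes outside the group whose residuals were most like the mean of the 10 were Cd52 (r = 0.95), Pik3ap1 (0.93), Itgal (0.92), Clec4n, Lpxn and Arhgap30 (0.91 each), and Wdfy4 and Tnfrsf13b (0.90 each). These values describe the same 20 libraries, share their scaling and carry no test.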

How the data were processed

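Bulk RNA-seq of small intestine was taken as deposited, 20 libraries in 4 groups of 5, grouped by the age and treatment in the labels. The deposited values are expected counts per gene. Per the submitters' processing notes, tools were cutadapt 4.8, FastQC 0.11.8, STAR 2.7.8a and RSEM 1.3.3, with builds GRCh38 and GRCm38 listed. Annotation release and strandedness are not given in the sources used here. Of 55487 gene IDs 55227 were matched to GENCODE M21. The values were already whole (rounding changed 0), and totals were 14.9 to 42.6 mega counts, which sets the counting error of the scarce genes.

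In R 4.3.3, edgeR 4.0.16 fitted 1 mean per group to all 20 libraries (TMM, filterByExpr, robust quasi-likelihood, 16 residual degrees of freedom), with Benjamini-Hochberg adjustment over 17464 genes and a threshold of 0.05. The filtered genes held 0.0838% or less of the counts in every library. SE is the log2 fold change over the root of the F statistic. Log2 CPM used a prior count of 2. Lengths are those of the principal transcript in GENCODE. The procedure was tested on simulated data. Alternatives were DESeq2 1.42.0, its size factors, other filters, no robust estimation, only the groups compared, a replicate block, a B cell covariate and libraries left out.

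The members, gene lists and alternatives were chosen with earlier results of these data known. All 10 genes are named. Of each list, up to 4 genes with the smallest p per comparison are named, with H2-DMa, H2-Ea, Rfx5, Ctss, Ifi30, Ifng, Irf1 and Nlrc5 always; some genes that this rule names are not reported here. RefSeq promoters of H2-Ab1, Ciita and Cd74 are not shown. The 8 most alike genes have a mean log2 CPM of at least 1. Ms4a1, the other B cell genes given by library, the per-kb ratios and values without single libraries were chosen after values were seen.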

Additional observations from a re-analysis of the deposited data

Results flagged for a closer look

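Among 44 groups of 5 values (the 10 genes and the H2-Ab1 to H2-Aa ratio in 4 groups), 8 held a library whose gap to its nearest neighbour exceeded 0.71 of the group's range, the critical value of Dixon's test for 5. For independent groups chance gives about 1 in 20. These 44 share libraries, the genes vary together, and the ratio is made from H2-Aa and H2-Ab1 values. The 8 therefore cannot be set against that rate as separate draws. Of the 8, 6 concern control library 5 at 2 weeks. It had 30.7 CPM of H2-Aa, 31.5 of H2-Eb1, 0.966 of H2-DMb1 and 111 of Cd74, all below the other 4. It had 118 CPM of H2-Ab1 and a ratio of H2-Ab1 to H2-Aa of 3.57, both above the other 4. That library had the lowest total, 14.9 mega counts. The other 2 concern periodontitis library 4 at 7 weeks, which had 0.748 CPM of H2-Eb2 against 0.139 to 0.275 in the others, and 2.49 CPM of H2-Ob against 0.550 to 1.10. Its B cell mean was 0.54 log2 CPM against -2.38 to -1.36.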

How the results depend on the processing

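Of the 5 counts of class II genes called, those between dams at 2 weeks and for the interaction stayed at 0 under every alternative run, and that at 7 weeks was 1 with DESeq2 and 0 otherwise. In control pups the count with age, 2, was 1 with DESeq2's size factors, with DESeq2, with CPM above 1 in 5 libraries and without both libraries that stand apart (control library 5 at 2 weeks and periodontitis library 5 at 7 weeks), 0 with no filter and with only the groups compared, and 0 to 4 when leaving out single libraries. In periodontitis pups the count, 2, was 0 with DESeq2's size factors, 1 with only the groups compared (H2-Eb2) and 1 without those 2 libraries, where neither H2-Eb2 nor H2-Ob was called and H2-Aa was called lower, and 0 to 3 when leaving out single libraries. With the B cell mean as a covariate it was again 2, but H2-Ab1 and H2-DMb2, both higher, and in control pups 3 (H2-Eb2, H2-DMb2 and Ciita). With the replicate number as a block the counts were 1 in control and 0 in periodontitis pups; same-numbered libraries correlated from -0.40 to 0.29 in their residuals, so the numbers were not taken to pair them, and not every library correlated best with its own number. The causes were not tested.

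Of the values for single genes, 28 changed sign under an alternative other than leaving out 1 library. With the B cell mean as a covariate, the 7-week difference between dams was 0.10 for H2-Aa, 0.43 for H2-Ab1, 0.20 for H2-Eb1, 0.37 for H2-DMb1, 0.039 for H2-DMb2, 1.13 for H2-Oa and 0.39 for Cd74. The 2-week difference was 0.024 for H2-Ab1 and the interaction 0.11 for H2-DMb2. Change with age in control pups was -0.059 for H2-Oa and -0.050 for H2-Ob. In periodontitis pups it was 0.21 for H2-Eb1, 0.49 for H2-Eb2, 0.96 for H2-DMb2, 0.94 for H2-Oa, 0.28 for H2-Ob, 0.21 for Cd74 and 0.38 for Ciita.

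Without both libraries that stand apart, the 2-week difference was 0.087 for H2-Ab1, -0.16 for H2-Oa and -0.021 for Ciita. Change with age was then -0.046 for H2-Aa and -0.047 for H2-Oa in control pups and -0.022 for H2-DMb1 in periodontitis pups. With no filter the 2-week difference of H2-Ab1 was 0.038 and the change of H2-DMb1 with age in periodontitis pups -0.020. The change of H2-Ob with age in control pups was -0.0025 with only the groups compared and -0.051 with the replicate block.

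Leaving out single libraries, the 2-week difference ran from -0.094 to 0.090 for H2-Ab1, -0.15 to 0.14 for H2-Oa and -0.019 to 0.23 for Ciita. The 7-week difference ran from -0.32 to 0.28 for H2-Ab1, -0.48 to 0.15 for H2-DMb1, -1.03 to 0.00095 for H2-Oa and -0.84 to 0.041 for Cd74. Change with age in control pups ran from -0.21 to 0.34 for H2-Aa, -0.019 to 0.51 for H2-Eb1, -0.55 to 0.41 for H2-Oa, -0.38 to 0.27 for H2-Ob and -0.22 to 0.49 for Cd74. In periodontitis pups it ran from -0.25 to 0.20 for H2-DMb1 and -0.24 to 0.055 for Ciita. Counts of H2-Eb2 down to 3 in a library limit the precision of its value.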
